A study of Homo sapiens with 4 samples.

Results

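The genes described here code for 7 proteins of the EGFR, RAS, MAPK and PI3K signalling pathway: EGFR, HRAS, NRAS, BRAF, MAP2K1, PIK3CA and AKT1. They were chosen by name, with earlier results of these data known. Introns of 6 of them were measured, 74 of 142206 introns in all, among 15902 genes. HRAS was not analysed here, and of the 27 introns of the annotated EGFR transcript only the first 9 were measured. The other members had 6 introns (NRAS), 17 (BRAF), 10 (MAP2K1), 20 (PIK3CA) and 12 (AKT1). For AKT1 the count of introns begins after the exon that holds the start codon.

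RNA was taken from the cytoplasm of SUM159 cells, a human triple-negative breast cancer cell line with mesenchymal features. The cells were treated for 12 hours with H3B-8800 or with its vehicle DMSO, with 2 libraries per group, described as biological duplicates. H3B-8800 is a small molecule that binds the SF3B complex, the part of the spliceosome that recognises the branch point of an intron. SUM159 is known to carry activating mutations of HRAS and PIK3CA, so every library comes from a line in which this pathway is altered. It is a single cell line, and whether the effects hold in other cells was not tested.

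In this pathway a growth factor binds EGFR, a receptor tyrosine kinase, and adaptors and exchange factors then load RAS proteins such as HRAS and NRAS with GTP. Active RAS binds RAF kinases such as BRAF, which phosphorylate MEK kinases such as MAP2K1, and these in turn activate ERK. RAS and the receptor also engage PI3K, whose catalytic subunit p110-alpha is made from PIK3CA, and the lipid it makes recruits the kinase AKT1 to the membrane. In breast cancer the pathway is known for mutations of PIK3CA and AKT1 and for growth signals from EGFR.

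AKT1 had the largest rise in intronic reads per gene among the members, and its introns carry most of the results given further on. AKT1 lies on the minus strand of chromosome 14. The 3' ends of the introns named for their ratio of intronic to spliced reads are shown from the GENCODE 29 transcripts on GRCh38 (hg38), with 50 intron bases and then 5 bases of the next exon. The capitals mark the AG that ends the intron, and the branch point region lies upstream of it.
AKT1 intron 2, chr14:104776766-104776820: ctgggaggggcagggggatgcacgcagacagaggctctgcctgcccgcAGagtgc
AKT1 intron 4, chr14:104775203-104775257: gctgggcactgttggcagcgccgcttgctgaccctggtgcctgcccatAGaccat
AKT1 intron 7, chr14:104773576-104773630: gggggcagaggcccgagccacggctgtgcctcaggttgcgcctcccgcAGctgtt
AKT1 intron 11, chr14:104770843-104770897: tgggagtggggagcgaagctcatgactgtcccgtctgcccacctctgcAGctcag
AKT1 intron 5 is also shown, as a whole. It is 72 bases long, and capitals mark its first GT and last AG.
AKT1 intron 5, chr14:104775004-104775075: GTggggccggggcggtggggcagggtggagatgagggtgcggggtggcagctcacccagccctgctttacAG
In the 20 bases before the AG, intron 2 held 12 pyrimidines, intron 4 held 13, intron 7 held 14 and intron 11 held 16. Intron 5, a short intron with little room for intronic reads and next to none in any library, held 15. Sequence of AKT1 intron 1 was not used here.

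For each intron the files give reads that lie inside it (intronic reads) and reads that span it from exon to exon (spliced reads). The libraries held 11605061 and 12536423 spliced reads after H3B-8800 and 14240258 and 14194422 after DMSO. There were 1035695 and 1126434 intronic reads after H3B-8800, and 629498 and 628580 after DMSO, so the measured introns as a whole held more intronic reads in the treated cells. Spliced reads are given as CPM, a share of all spliced reads of a library after TMM scaling: less RNA per cell and fewer cells that make it cannot be told apart. Markers were read beside the cell line label. All 6 mesenchymal genes looked up reached a mean of 1 CPM, and so did 3 of 8 luminal genes. VIM, a mesenchymal filament protein, had 5138 and 4939 CPM after H3B-8800 and 6080 and 5952 CPM after DMSO, while the luminal receptor genes ESR1 and PGR had no spliced read in any library. KRT8 and KRT18, keratins of luminal cells, were present at 163 to 442 CPM over the 4 libraries. ERBB2, also looked up for the label, was not absent: it had 33.3 and 31.3 CPM after H3B-8800 and 39.3 and 36.6 CPM after DMSO. Of the markers of other cell types, CD3E was at 0, PECAM1 lay between 1.87 and 4.97 CPM, and PTPRC was not analysed here.

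With H3B-8800, spliced reads of 5 of the 6 members were higher than after DMSO and those of AKT1 were lower. EGFR, NRAS, BRAF, MAP2K1 and PIK3CA passed the test as higher and AKT1 passed as lower (adjusted p under 0.05 in the quasi-likelihood test of edgeR). Over all 9468 genes tested, 32.8% were called higher and 32.7% lower, with a median log2 change of 0.01, so calls were common in both directions. Scaled to library totals instead, the median over all genes was -0.16, and the members were each lower by a like amount. EGFR and BRAF rest on few reads and lost their calls when some libraries were left out.

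**Figure D1:**
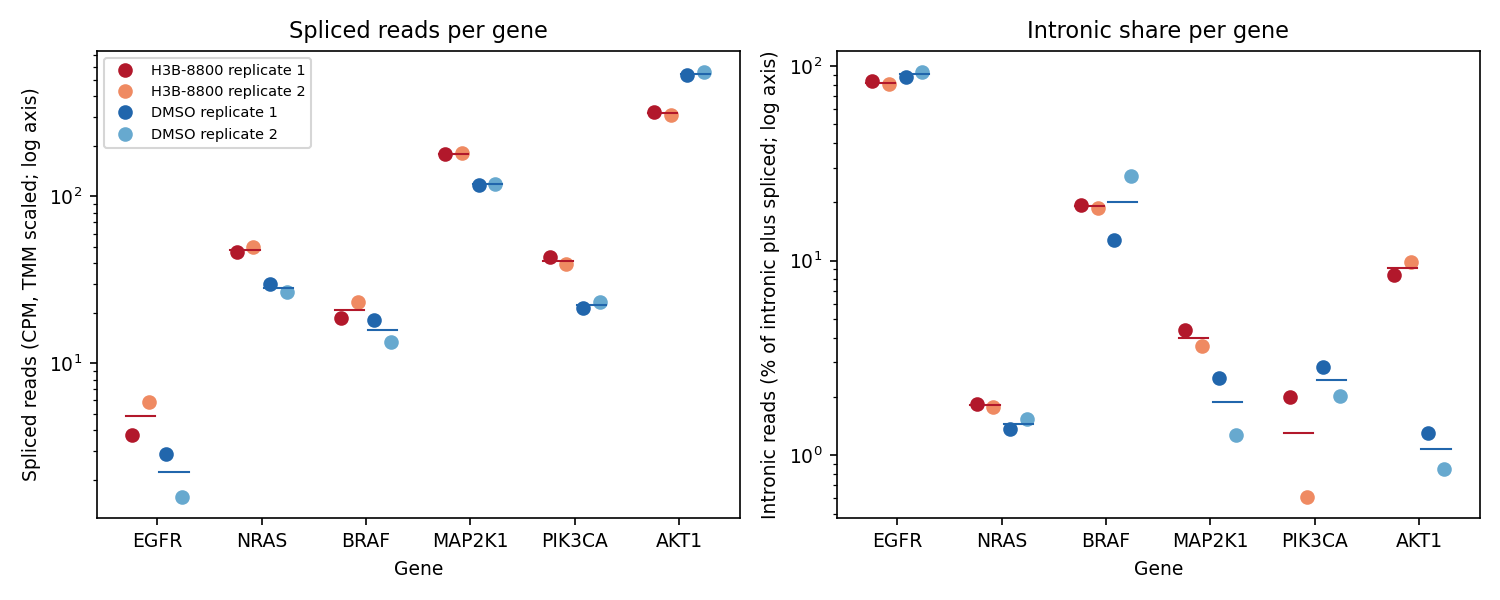
Spliced reads per gene (CPM, log axis) and intronic reads as a percentage of all reads of the gene (log axis) in each library, H3B-8800 to the left of DMSO, with lines at the group means. AKT1 is the member with lower spliced reads and a higher intronic percentage in both H3B-8800 libraries, at 8.39% and 9.82% against 1.30% and 0.851%.

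EGFR is the receptor at the head of the pathway. Its measured introns had 43 and 73 spliced reads after H3B-8800 and 41 and 23 after DMSO. These came to 3.75 and 5.90 CPM after H3B-8800, against 2.85 and 1.59 CPM after DMSO. The groups did not overlap in CPM, but they did not lie far apart, and each of the 9 introns had 6.44 spliced reads on average after H3B-8800 and 3.56 after DMSO. The log2 change was 1.12 ± 0.36 (SE, edgeR adjusted p = 0.0143). Without H3B-8800 replicate 2 it was 0.76 (edgeR adjusted p = 0.203), and without DMSO replicate 2 it was 0.75 (edgeR adjusted p = 0.145).

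NRAS, a RAS GTPase that passes the signal from receptor to RAF and PI3K, had 46.5 and 49.7 CPM after H3B-8800 and 30.1 and 26.7 CPM after DMSO. Both treated libraries lay above both vehicle libraries. The group means were 48.1 ± 2.26 CPM after H3B-8800 and 28.4 ± 2.41 CPM after DMSO (SD, n = 2 each), and the log2 change was 0.76 ± 0.09 (SE, edgeR adjusted p = 9.08e-06), a 1.69-fold rise.

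BRAF, the RAF kinase that phosphorylates MEK, had 18.6 and 23.4 CPM after H3B-8800 and 18.2 and 13.4 CPM after DMSO. The lower treated library nearly met the higher vehicle library. The log2 change was 0.41 ± 0.16 (SE, edgeR adjusted p = 0.0386), which moved to 0.56, 0.24 and 0.20 without H3B-8800 replicate 1, H3B-8800 replicate 2 and DMSO replicate 2, with edgeR adjusted p of 0.0745, 0.406 and 0.38. With library totals as the scale it was 0.23 (edgeR adjusted p = 0.217).

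MAP2K1, which codes for the kinase MEK1, had 179 and 181 CPM after H3B-8800, against 118 and 118 CPM after DMSO. Replicates lay close together, and the groups were well apart. The log2 change was 0.61 ± 0.06 (SE, edgeR adjusted p = 7.4e-07), a 1.52-fold rise.

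PIK3CA, the catalytic subunit of PI3K, had 43.1 and 39.4 CPM after H3B-8800 and 21.5 and 23.5 CPM after DMSO. Its log2 change of 0.87 ± 0.10 (SE, edgeR adjusted p = 5.31e-06), a 1.83-fold rise, was above that of 90.6% of the genes tested. The groups did not overlap.

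AKT1, the kinase that carries the PI3K signal to growth and survival targets, had 320.3 and 308.9 CPM after H3B-8800 and 532.8 and 556.7 CPM after DMSO. It had the most spliced reads of the 6 genes per measured intron, 312.2 on average after H3B-8800 and 653.7 after DMSO. The means were 314.6 ± 8.06 CPM after H3B-8800 and 544.7 ± 16.9 CPM after DMSO (SD, n = 2 each). AKT1 was the member that fell: its log2 change was -0.80 ± 0.05 (SE, edgeR adjusted p = 1.19e-08), or 1.74-fold lower, and 15.7% of the genes tested had a lower value.

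Intronic reads were more numerous in AKT1 and MAP2K1 after H3B-8800, and EGFR and BRAF did not pass the test. AKT1 had 336 and 416 intronic reads after H3B-8800 and 101 and 69 after DMSO, although its spliced reads were fewer after H3B-8800. The intronic share of its reads averaged 9.10% ± 1.01 after H3B-8800 and 1.08% ± 0.319 after DMSO (SD, n = 2 each). Against the library totals the intronic reads were 4.70-fold higher, a log2 change of 2.23 ± 0.18 (SE, edgeR adjusted p = 2.67e-10). Scaled by TMM of the intronic reads the change was 1.21 (edgeR adjusted p = 1.35e-05), and it also passed with DESeq2 (adjusted p = 2.89e-05). Without H3B-8800 replicate 1 or replicate 2 it was 2.34 or 2.12, with edgeR adjusted p of 0.0538 or 0.0575. In these 2 fits 0 of 7747 and 0 of 7648 genes passed with edgeR, although 3675 and 3497 had an unadjusted p under 0.05.

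MAP2K1 had 94 and 85 intronic reads after H3B-8800, against 43 and 22 after DMSO. This was a log2 change of 1.55 ± 0.31 (SE, edgeR adjusted p = 0.000189). Without H3B-8800 replicate 1 or replicate 2 it was 1.43 or 1.67, with edgeR adjusted p of 0.146 or 0.12, in the same fits in which no gene passed. The change scaled by TMM of the intronic reads was 0.53 (edgeR adjusted p = 0.192).

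EGFR had 225 and 297 intronic reads after H3B-8800 and 306 and 309 after DMSO, and the groups were close (log2 change -0.15 ± 0.14 SE, edgeR adjusted p = 0.381). BRAF had 51 and 66 after H3B-8800 and 38 and 72 after DMSO, and the groups overlapped (log2 change 0.18 ± 0.32 SE, edgeR adjusted p = 0.635). NRAS had 10 and 11 after H3B-8800 and 6 and 6 after DMSO, and PIK3CA had 10 and 3 after H3B-8800 and 9 and 7 after DMSO. NRAS and PIK3CA were below the minimum mean of 10 intronic reads and were not tested. Thus 2 of the 4 members tested were called higher and 0 lower by edgeR, and those 2 were also the only ones of the 4 with an unadjusted p under 0.05. Over all 7900 genes tested, 58.3% were called higher and 4.37% lower, with a median log2 change of 1.04. When TMM of the intronic reads was the scale, that median was 0.02 and 1601 genes were called higher and 1589 lower; EGFR then fell by 1.17 (edgeR adjusted p = 5.11e-07) and BRAF fell by 0.85 (edgeR adjusted p = 0.0351).

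The ratio of intronic to spliced reads does not depend on how libraries are scaled. For AKT1 its log2 change was 3.21 ± 0.23 (SE, edgeR adjusted p = 1.6e-08), a 9.25-fold rise that lay above 94.4% of the 7566 genes tested. For MAP2K1 it was 1.13 ± 0.31 (SE, edgeR adjusted p = 0.00451), and without DMSO replicate 2 it was 0.71 (edgeR adjusted p = 0.0661). For BRAF it was -0.04 ± 0.40 (SE, edgeR adjusted p = 0.927). EGFR was lower, at -1.09 ± 0.36 (SE, edgeR adjusted p = 0.0148), but that value rests on intron 1, which held most of its intronic reads. Without that intron the EGFR ratio was higher by 2.94 ± 0.71 on the log2 scale (SE, edgeR adjusted p = 0.00335), but its other introns, with 45 and 45 intronic reads after H3B-8800 and 4 and 2 after DMSO, reached the minimum for that test only through the treated libraries. In all, 2 of the 4 members tested were called higher and 1 lower, beside 65.4% and 2.35% over all genes and a median of 1.35. The median of all genes lay above the MAP2K1 value.

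Within AKT1 the 12 introns did not gain reads evenly. Introns 1 and 2, the long introns at the 5' side, together held 203 and 219 intronic reads after H3B-8800 and 19 and 7 after DMSO. The other 10 introns together held 133 and 197 after H3B-8800 and 82 and 62 after DMSO. Spliced reads went the other way along the whole gene: each of the 12 introns passed the test as lower, with log2 changes from -1.10 to -0.56 and a median of -0.74.

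AKT1 intron 1 (chr14:104780217-104792597, 12381 bases) had 168 and 157 intronic reads after H3B-8800 and 12 and 4 after DMSO. Its spliced reads were 148 and 161 after H3B-8800 and 302 and 346 after DMSO, so that 105 intronic reads stood beside each 100 spliced reads in the treated libraries, against 2.47 in the vehicle libraries. Intron 1 reached the minimum for the ratio test only through the treated libraries. Its ratio was higher by 5.39 ± 0.45 on the log2 scale (SE, edgeR adjusted p = 3.16e-06), the greatest change among the 6 introns of the members whose ratio was tested. An intron of this length holds more room for reads than a short one: per kilobase it had 13.6 and 12.7 reads after H3B-8800 and 0.969 and 0.323 after DMSO.

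AKT1 intron 2 (chr14:104776771-104780087, 3317 bases) had 35 and 62 intronic reads after H3B-8800 and 7 and 3 after DMSO. Per 100 spliced reads this was 39.1 after H3B-8800 and 2.03 after DMSO, and the ratio was higher by 4.20 ± 0.54 on the log2 scale (SE, edgeR adjusted p = 6.25e-05). Intron 4 (chr14:104775208-104775651, 444 bases), shorter by far, had 15 and 36 after H3B-8800 and 4 and 8 after DMSO. Its ratio change of 3.22 ± 0.62 (log2, SE, edgeR adjusted p = 0.000956) followed intron 2 in size. The groups did not overlap in either intron, but both introns reached the minimum for the test only through the treated libraries.

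AKT1 intron 7 (chr14:104773581-104773911, 331 bases) had 11 and 22 intronic reads after H3B-8800 and 6 and 10 after DMSO, which did not pass as a change of intronic reads (log2 change 1.12 ± 0.64 SE, edgeR adjusted p = 0.165). It had the largest log2 fall of spliced reads in the gene, -1.10 ± 0.11 (SE, edgeR adjusted p = 1.16e-07), with 173 and 212 after H3B-8800 and 491 and 546 after DMSO. The ratio was higher by 2.45 ± 0.50 (log2, SE, edgeR adjusted p = 0.00145), in a test that intron 7 reached only through the treated libraries. Intron 11 (chr14:104770848-104772364, 1517 bases) had the most intronic reads of the gene in the vehicle cells, 51 and 34, and it had 68 and 99 after H3B-8800. Its ratio change was 1.93 ± 0.33 (log2, SE, edgeR adjusted p = 0.000422), the smallest of the 5 AKT1 introns tested, and its intronic reads alone changed by 0.02 (edgeR adjusted p = 0.971) when scaled by TMM of the intronic reads.

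The remaining AKT1 introns held few intronic reads. Intron 5, the intron shown whole above, had 1 and 0 intronic reads after H3B-8800 and 0 and 1 after DMSO, beside 460 and 481 spliced reads after H3B-8800 and 890 and 851 after DMSO. Intron 8, with 75 bases, had 6 and 2 after H3B-8800 and 4 and 2 after DMSO, beside the most spliced reads of the gene, 999 and 1037 after H3B-8800 and 2110 and 2277 after DMSO. Spliced reads were fewer at both of these introns as well. Introns this short leave little room for intronic reads, so whether they were retained was not tested. Intron 3, with 859 bases, had 9 and 9 after H3B-8800 and 0 and 0 after DMSO and was below the minimum for a test.

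**Figure D2:**
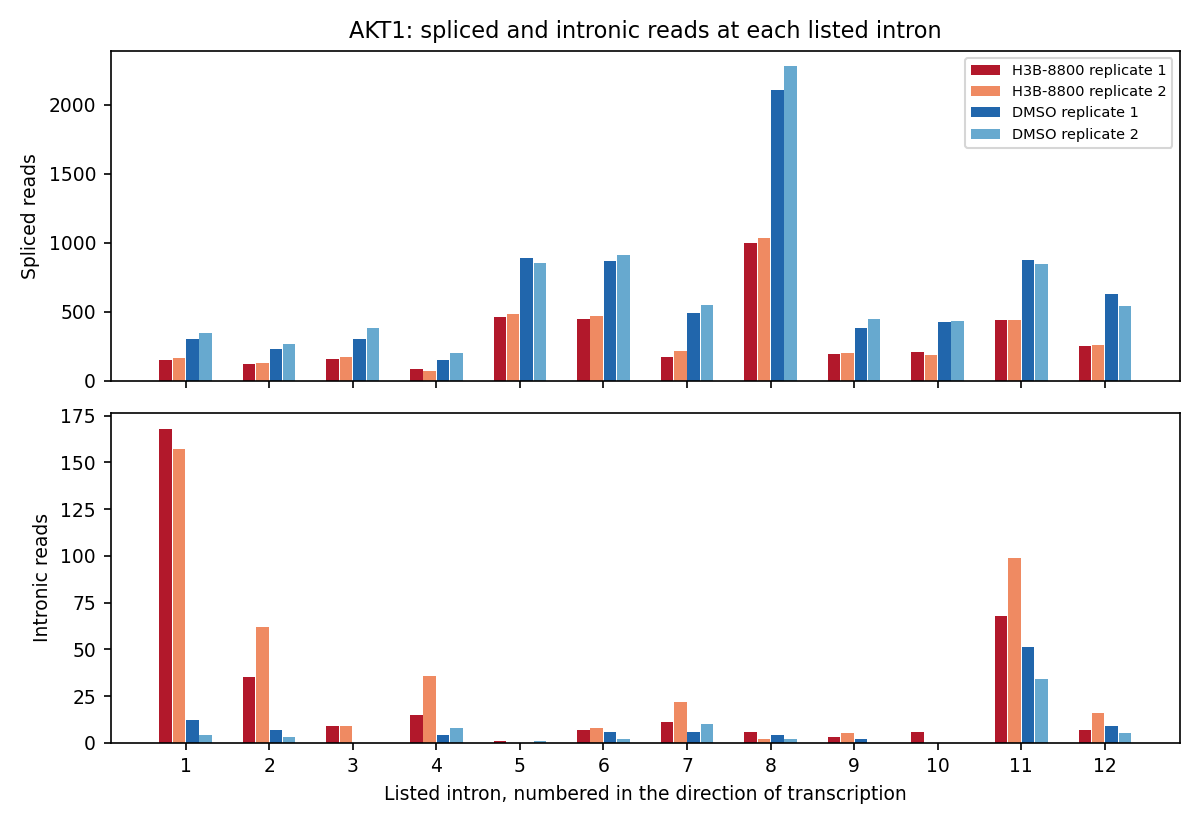
Spliced and intronic reads of each AKT1 intron in 5' to 3' order, in each library, H3B-8800 left of DMSO at each intron. Spliced reads are lower after H3B-8800 at all 12 introns, and intronic reads are furthest apart at introns 1 and 2, with 168 and 157 against 12 and 4 at intron 1.

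In the annotation, 10 of the 12 AKT1 introns hold an exon of another AKT1 transcript, most of them in transcripts annotated as retained introns. Reads of those exons count as intronic here, and their part in the result was not tested. Introns 1, 2, 4 and 7 had a mean under 10 intronic reads after DMSO and were tested only because their reads were more numerous after H3B-8800, so that they passed says little in itself.

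EGFR intron 1 (chr7:55019366-55142285, 122920 bases) had 180 and 252 intronic reads after H3B-8800 and 302 and 307 after DMSO. It held 80.0% and 84.8% of the intronic reads of the gene after H3B-8800 and 98.7% and 99.4% after DMSO. Only 1 and 1 reads after H3B-8800, and 2 and 3 after DMSO, spanned it, and it holds annotated exons of other EGFR transcripts. The intronic reads fell by 0.41 ± 0.16 on the log2 scale (SE, edgeR adjusted p = 0.0467), and with any 1 of the 4 libraries left out the edgeR adjusted p was 0.0582 to 0.168. Scaled by TMM of the intronic reads the value was -1.45 (edgeR adjusted p = 4.63e-05), and with DESeq2 it was -1.43.

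EGFR intron 3 (chr7:55143489-55146605, 3117 bases), which holds no annotated exon, went the other way. It had 25 and 32 intronic reads after H3B-8800 and 2 and 2 after DMSO, far apart in the groups, and its log2 change was 3.84 ± 0.65 (SE, edgeR adjusted p = 0.000666). It reached the minimum for a test only through the treated libraries, and without H3B-8800 replicate 1 the edgeR adjusted p was 0.094. Spliced reads there were 3 and 2 after H3B-8800 and 5 and 0 after DMSO, too few for a ratio. Introns 2 to 9 together had 45 and 45 intronic reads after H3B-8800 and 4 and 2 after DMSO, beside 42 and 72 spliced reads after H3B-8800 and 39 and 20 after DMSO.

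MAP2K1 intron 5 (chr15:66444708-66481754, 37047 bases) held the most intronic reads of the gene in the treated cells, 38 and 35, against 21 and 4 after DMSO. The vehicle libraries differed from each other by more than the treated ones did. The ratio was higher by 1.48 ± 0.59 (log2, SE, edgeR adjusted p = 0.0473), a call kept only with the replicate block and without DMSO replicate 1, among the alternatives run. Without DMSO replicate 1 it was 3.11 (edgeR adjusted p = 0.0031), and without DMSO replicate 2 it was 0.64 (edgeR adjusted p = 0.3). Without H3B-8800 replicate 1 or replicate 2 the edgeR adjusted p was 0.219 or 0.102. It did not pass with DESeq2 (adjusted p = 0.0749) or without a filter on low counts (edgeR adjusted p = 0.277) either. Introns 8 to 10 together had 43 and 30 intronic reads after H3B-8800 and 4 and 6 after DMSO. Exons of genes on the opposite strand lie in those 3 introns, among them exons of AC116913.1 and SNAPC5, and no source used here says how reads were assigned to strands. With introns that hold no annotated exon alone, the MAP2K1 ratio was 0.45 higher on the log2 scale (edgeR adjusted p = 0.404).

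**Figure D3:**
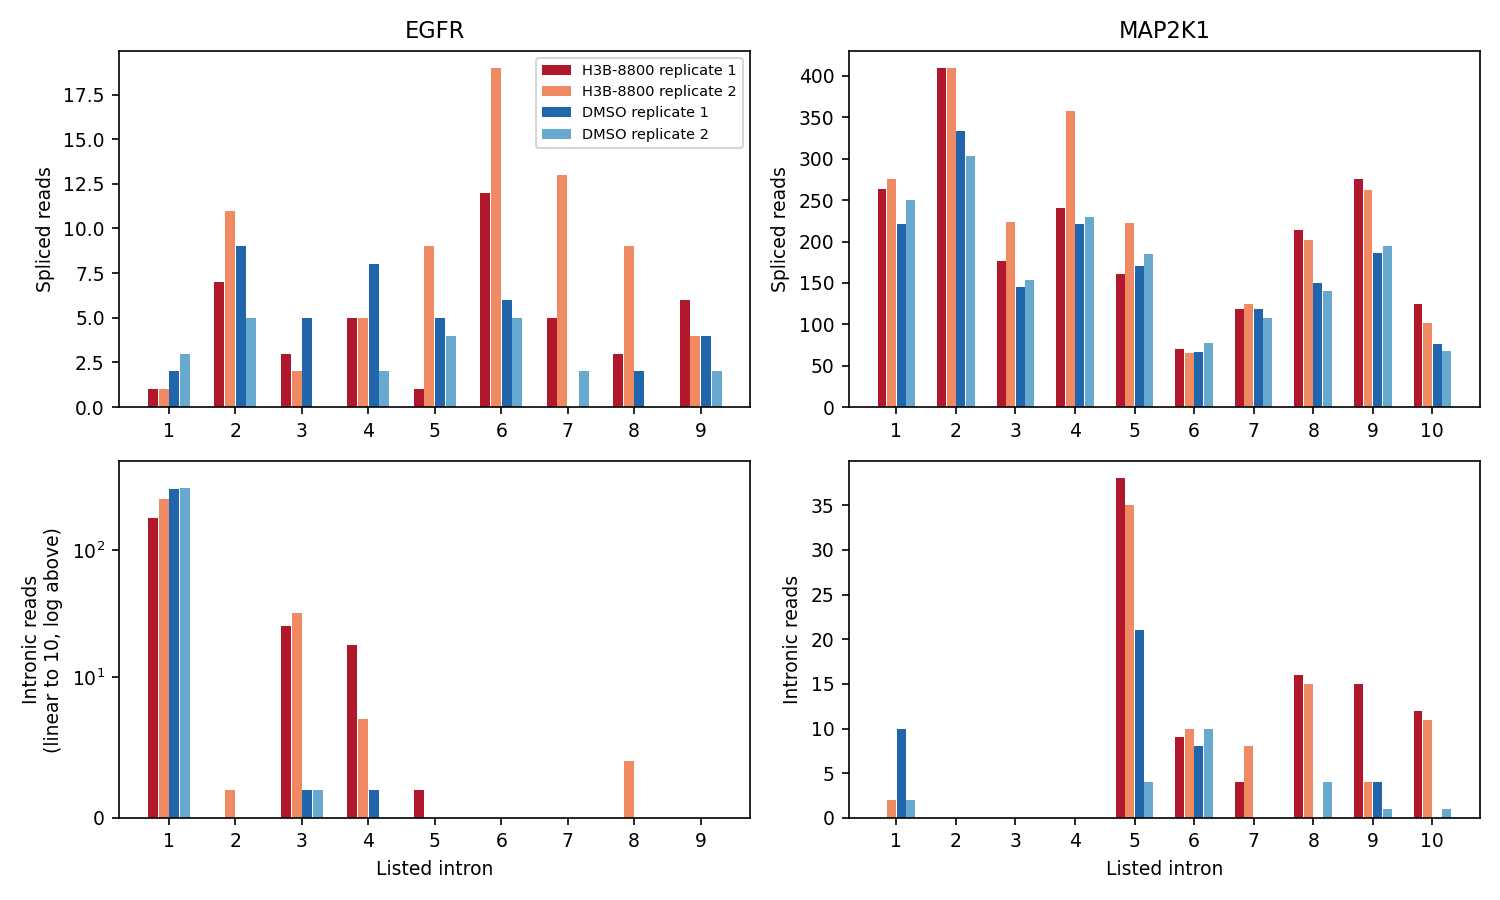
Spliced and intronic reads of each measured intron of EGFR (intronic axis linear to 10 and logarithmic above) and MAP2K1, in each library, H3B-8800 left of DMSO. At EGFR intron 1 the treated libraries lie below the vehicle libraries, 180 and 252 against 302 and 307, while at intron 3 they lie above, 25 and 32 against 2 and 2.

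BRAF intron 3 (chr7:140808996-140834608, 25613 bases) had 41 and 58 intronic reads after H3B-8800 and 35 and 65 after DMSO, and the groups overlapped (log2 change 0.07 ± 0.35 SE, edgeR adjusted p = 0.872). It holds annotated exons of other BRAF transcripts and was spanned by only 5 and 2 reads after H3B-8800 and 8 and 9 after DMSO. The other 16 introns together had 10 and 8 intronic reads after H3B-8800 and 3 and 7 after DMSO.

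NRAS and PIK3CA had hardly any intronic reads. NRAS intron 2 had the most in NRAS after H3B-8800, 10 and 2, against 2 and 2 after DMSO, and intron 3 had 0 and 5 after H3B-8800 and 2 and 4 after DMSO. No NRAS intron holds an annotated exon. PIK3CA intron 1 had 8 and 1 after H3B-8800 and 9 and 3 after DMSO, and its 19 other introns together had 2 and 2 after H3B-8800 and 0 and 4 after DMSO. In PIK3CA 16 of 20 introns had no intronic read in any library. Over the 6 genes this was so for 30 of 74 introns, and 51 had at most 5 reads in each library, which limits what could be detected.

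Spliced reads intron by intron followed the gene totals. Of the 54 introns tested, 26 were called higher and 12 lower by edgeR, beside 21.5% and 21.7% of all 66136 introns tested, and the other 16 did not pass. The 12 lower introns were all in AKT1. In MAP2K1 9 of 10 introns were higher, with log2 changes over all 10 from 0.23 to 0.99. In PIK3CA 10 of 16 tested were higher (-0.03 to 1.40), in NRAS 4 of 6 (0.47 to 1.59), in BRAF 2 of 9 (-0.25 to 1.00) and in EGFR the 1 tested. Without H3B-8800 replicate 1 or replicate 2 no intron of the whole table passed the adjusted threshold with edgeR, but 30 and 29 of 53 introns of the members had an unadjusted p under 0.05; with DESeq2 and all libraries, 10 were called higher.

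The 5' end of NRAS gained most: intron 1 was spanned by 55 and 56 reads after H3B-8800 and 19 and 27 after DMSO, a log2 change of 1.59 ± 0.29 (SE, edgeR adjusted p = 0.000125). At intron 3 of NRAS the reads were 202 and 248 after H3B-8800 and 169 and 142 after DMSO (log2 change 0.86 ± 0.14 SE, edgeR adjusted p = 3.04e-05). In PIK3CA the log2 change was greatest at intron 13, with 26 and 27 after H3B-8800 and 9 and 16 after DMSO (1.40 ± 0.41 SE, edgeR adjusted p = 0.00833). In each of these introns both treated libraries lay above both vehicle libraries.

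**Figure D4:**
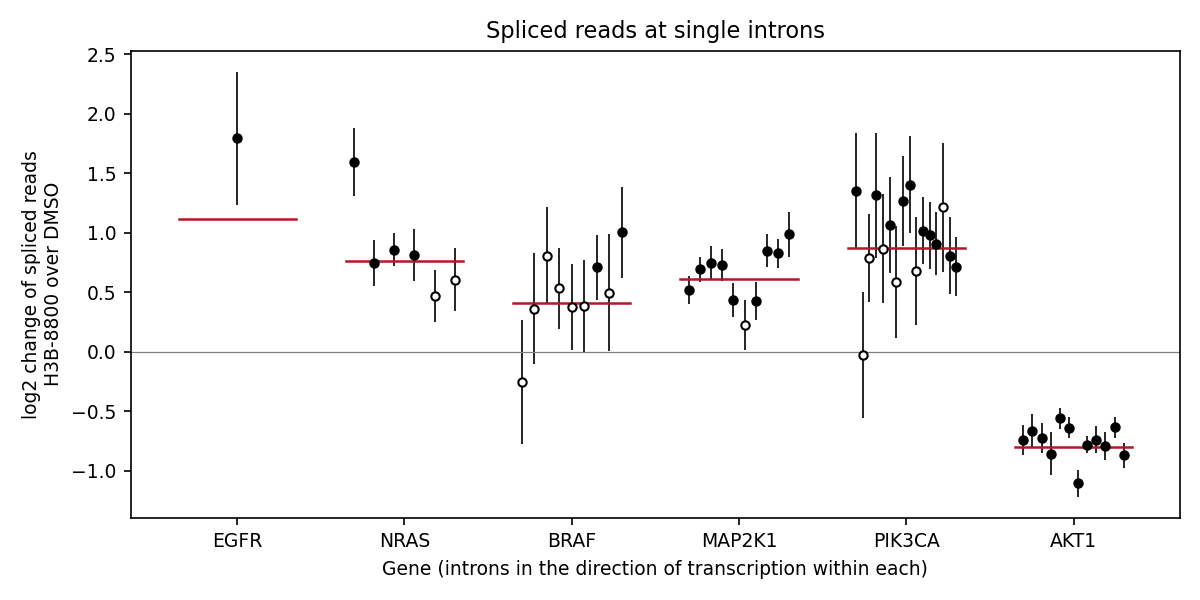
Log2 change of spliced reads, H3B-8800 over DMSO, at each intron tested, with its SE as bars. Filled points passed the test (edgeR adjusted p under 0.05) and the red line is the value of the whole gene. All 12 AKT1 introns lie below 0 (-1.10 to -0.56), and the MAP2K1, NRAS and EGFR introns lie above 0.

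Intronic reads of single introns could be tested in 9 of the 74 introns. EdgeR called 6 higher and 1 lower, beside 48.2% and 5.74% of the 12013 introns tested in all. Of the 6 higher, 4 are in AKT1 and the others are EGFR intron 3 and MAP2K1 intron 5. AKT1 introns 1, 2, 4 and 7 and EGFR intron 3 reached the minimum of intronic reads only through the treated libraries. AKT1 intron 7 did not pass, and that the others of these were called higher says little in itself. The ratio could be tested in 6 introns, 5 of AKT1, with introns 1, 2, 4 and 7 among them, and 1 of MAP2K1. All 6 were called higher, beside 56.5% called higher and 2.88% called lower of 9937 introns. Without H3B-8800 replicate 2 only 4 of these introns reached the minimum for the test, and the ratio was called higher in 3 of them.

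The 6 members can be set beside other genes of the pathway, taken from 9 lists by role. Of 99 such genes 93 were measured and 85 tested, of which 38 were higher and 25 lower in spliced reads, and 22 did not pass. Over all genes 32.8% were called higher and 32.7% lower, which also stands beside the counts of each list below. Their median log2 change was 0.29, against 0.01 over all genes. The ratio of intronic to spliced reads was called higher in 46 of 72 genes and lower in 1, beside 65.4% and 2.35% over all genes. Its median was 1.10, below the 1.35 of all genes. The genes given with the words "also called" were named after their values were seen.

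Upstream of RAS, the ligands were scarcely expressed, and of 3 tested 1 was lower. HBEGF, which activates EGFR, had 4.27 and 3.07 CPM after H3B-8800 and 6.48 and 6.03 CPM after DMSO (log2 change -0.77 ± 0.26 SE, edgeR adjusted p = 0.0177), while EREG, another EGFR ligand, did not pass (-0.48 ± 0.41 SE, edgeR adjusted p = 0.318). Among the receptors 3 of 7 were higher and 3 lower. IGF1R and INSR, the receptors of IGF1 and insulin, were also called higher (INSR by 1.55), and ERBB2 (-0.24) and FGFR1 (-0.45) were also called lower. The receptor tyrosine kinase AXL had 44.0 and 49.1 CPM after H3B-8800, against 106 and 106 CPM after DMSO (log2 change -1.19 ± 0.08 SE, edgeR adjusted p = 2.34e-08). MET, the receptor of hepatocyte growth factor, moved the other way (0.91 ± 0.07 SE, edgeR adjusted p = 9.63e-08).

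Of the adaptors and exchange factors 5 of 10 passed the test, each of them higher. SOS1, which loads RAS with GTP, rose by 1.07 ± 0.08 (log2, SE, edgeR adjusted p = 1.41e-07), and PTPN11, the phosphatase SHP2 that helps RAS activation, by 0.86 ± 0.07 (log2, SE, edgeR adjusted p = 1.95e-07). The adaptors GRB2 (0.59) and CRKL (0.74) and the exchange factor SOS2 (0.48) were also called higher. Of 9 other RAS family genes 6 were higher and 2 lower. RHEB, which activates mTOR complex 1, had 1055 and 1075 CPM after H3B-8800 and 628 and 618 CPM after DMSO (log2 change 0.77 ± 0.04 SE, edgeR adjusted p = 2.76e-09). RAP1B, a RAS-like GTPase of cell adhesion, changed by 0.86 (edgeR adjusted p = 1.05e-07). RRAS (-1.08) and MRAS (-0.67) were also called lower.

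Of the RAS inhibitors and receptor brakes 6 of 11 were higher and 3 lower. NF1, a GTPase activator that switches RAS off, had 38.2 and 35.6 CPM after H3B-8800 and 14.2 and 11.5 CPM after DMSO (log2 change 1.52 ± 0.12 SE, edgeR adjusted p = 1.89e-07). RASA1, another GTPase activator for RAS, fell by 0.70 ± 0.06 (log2, SE, edgeR adjusted p = 4.34e-07), and RASA3 (-0.81) and LZTR1 (-0.88), which helps degrade RAS proteins, were also called lower. Among RAF kinases and scaffolds 6 of 8 passed the test, each of them higher, among them YWHAZ, a 14-3-3 protein that binds RAF, at 0.72 ± 0.04 (log2, SE, edgeR adjusted p = 8.76e-09), and LAMTOR3, a scaffold for MEK1 and ERK, at 1.11 ± 0.08 (log2, SE, edgeR adjusted p = 6.24e-08).

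The MEK, ERK and target kinases ran mostly the other way, with 2 of 7 higher and 5 lower and a median log2 change of -0.54. MAP2K2, which codes for MEK2, the close relative of MAP2K1, had 271 and 279 CPM after H3B-8800 and 553 and 562 CPM after DMSO (log2 change -1.02 ± 0.04 SE, edgeR adjusted p = 1.29e-09). The genes of the MEK pair thus changed in opposite directions, and the ratio of intronic to spliced reads rose by 2.62 (log2, edgeR adjusted p = 1.96e-08) in MAP2K2, against the 1.13 of MAP2K1. RPS6KA1, the ERK target kinase RSK1, had 34.7 and 42.5 CPM after H3B-8800, against 116 and 126 CPM after DMSO (log2 change -1.65 ± 0.09 SE, edgeR adjusted p = 7.83e-09). RPS6KA3 (-0.64), MKNK1 (-0.54) and MKNK2 (-0.52), further kinases that ERK activates, were also called lower. ELK1, a transcription factor that ERK phosphorylates, was also called higher (0.23).

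Of the PI3K subunits and lipid phosphatases 5 of 12 were higher and 5 lower. PIK3R1, the regulatory subunit that holds PIK3CA, had 109 and 96.2 CPM after H3B-8800 and 37.7 and 34.9 CPM after DMSO (2.82-fold higher, edgeR adjusted p = 1.01e-08), the same direction as PIK3CA. INPPL1, the lipid phosphatase SHIP2, fell by 1.33 ± 0.07 (log2, SE, edgeR adjusted p = 3.63e-09). PIK3R4 (1.07), PIK3C2A (0.45) and MTMR3 (0.72) were also called higher. PIK3R2, another regulatory subunit, was also called lower, with 40.7 and 41.9 CPM after H3B-8800 and 85.0 and 80.0 CPM after DMSO. PIK3CB (-0.44), PIK3R3 (-1.13) and INPP4B (-0.65) were also called lower. Among AKT and its downstream genes 5 of 18 were higher and 6 lower. MTOR, the kinase of the mTOR complexes, had 39.1 and 39.4 CPM after H3B-8800 and 106 and 107 CPM after DMSO (log2 change -1.45 ± 0.07 SE, edgeR adjusted p = 3.67e-09), the same direction as AKT1. RPS6KB1, the S6 kinase that mTOR activates, was higher by 1.00 ± 0.06 (log2, SE, edgeR adjusted p = 2.07e-08). RICTOR (1.33), FOXO3 (1.56), GSK3A (0.71) and GSK3B (0.29) were also called higher. AKT2, a close relative of AKT1, was also called lower (-0.83), and the other lower genes of this list are not reported here by name.

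**Figure D5:**
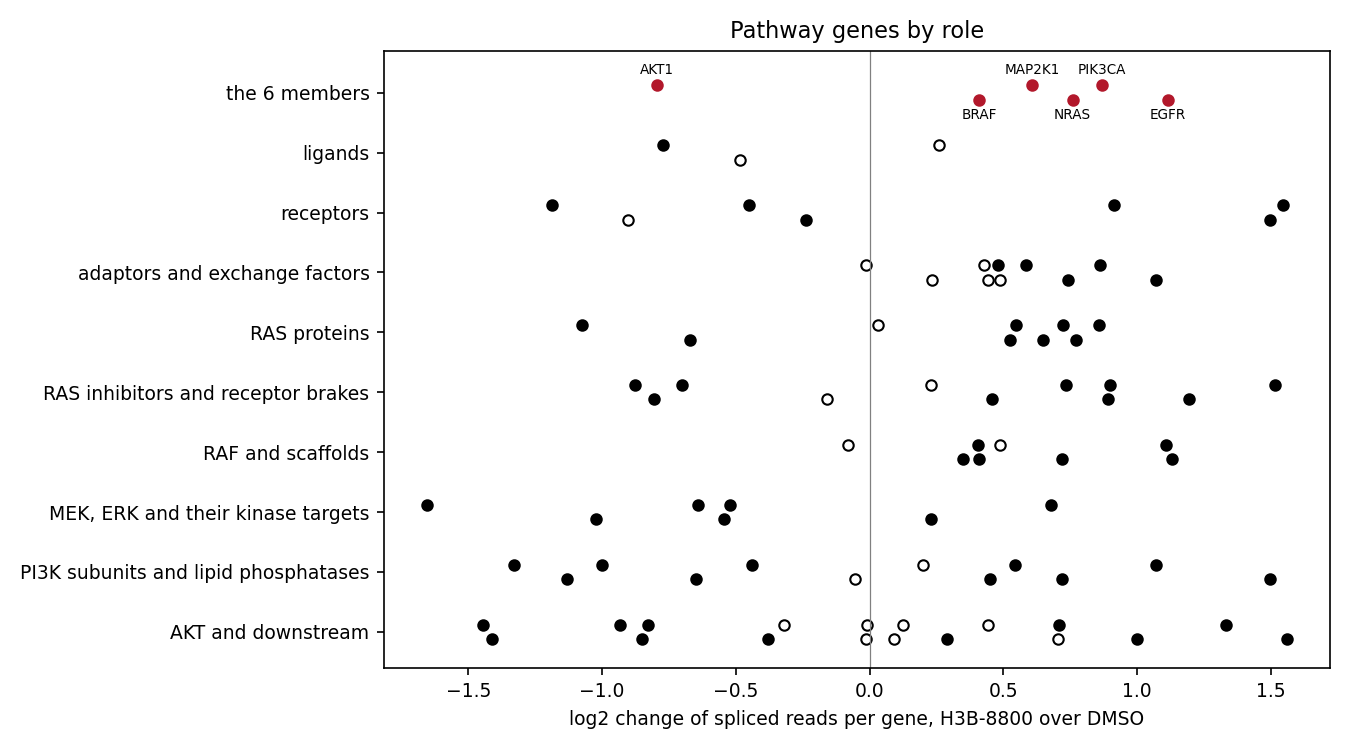
Log2 change of spliced reads per gene, H3B-8800 over DMSO, for the 6 members and the 85 tested genes of the role lists, 1 row per list. Filled points passed the test (edgeR adjusted p under 0.05) and open points did not; the MEK, ERK and target kinases have 5 of 7 genes below 0.

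Members with a tested ratio were also matched to the nearest of 72 role genes by the log2 changes of spliced reads and of the ratio, over the 4 libraries. AKT1 was nearest to RRAS, a RAS-related GTPase, with changes of -1.08 and 3.43. MAP2K1 was nearest to GRB2, the adaptor that brings SOS1 to receptors, with changes of 0.59 and 1.02. BRAF was nearest to the insulin receptor substrate IRS1, with 0.43 and -0.10. The ratio of EGFR turned its direction with intron 1 left out, so no nearest gene is given for EGFR.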

How the data were processed

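Cytoplasmic polyA RNA of 4 libraries, 2 per group, was sequenced from strand-specific libraries per the labels' protocols. The submitters' processing notes name HISAT2 2.0.4 and 2 builds, hg38 and mm10; the listed introns are human. The authors deposited, without a header, 2 read counts per intron and an RPKM value; 142224 introns are listed and 18 without the second count were left out. Dividing the first count by the deposited RPKM and the intron length gave library totals of 58000000 and 62000000 reads (H3B-8800) and 64000000 and 64000000 (DMSO). The first count was read as intronic and the excess of the second as spliced reads, an inference from the values. Even numbers made up 70.9% to 72.3% of intronic counts, so probably both mates entered the counts, which are then not independent. Reads over several introns enter each of them. Of the introns, 99.9% match GENCODE 29.

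Counts were tested with edgeR 4.0.16 (R 4.3.3), and DESeq2 1.42.0 was an alternative. Spliced reads used TMM and a mean of at least 1 CPM per gene or 10 reads per intron, intronic reads the recovered library totals and a mean of at least 10 reads. The ratio was tested in 1 model with a term per library, one for intronic against spliced and its product with treatment, for features with a mean of at least 10 of each kind. P values were adjusted over all features, at 0.05, and SEs were derived from the F statistic. The tests were first tested on simulated data. An exact permutation test of 2 against 2 cannot go below p = 0.333 and was not used. The members and lists were chosen with earlier results of these data known. Named are all members; in each, the introns with the smallest adjusted p of the ratio (up to 4) and with the most intronic reads per group; up to 2 genes per role list with the smallest adjusted p; and the role gene nearest to each member. Spliced values at NRAS introns 1 and 3, PIK3CA intron 13 and AKT1 introns 3, 5, 7 and 8, and EGFR intron 3, were chosen after values were seen. Some genes of the role lists and markers are counted but not reported here by name.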

Additional observations from a re-analysis of the deposited data

How the results depend on the processing

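With 2 libraries per group, few reads in most introns and strand handling unstated, small changes of single introns could not be seen at this depth. The causes of the changes below were not tested. The falls and rises of spliced reads in AKT1, MAP2K1, NRAS and PIK3CA passed under every alternative run. The AKT1 ratio passed under each alternative that gave it a value; with introns without an annotated exon it gave none, since 10 of its 12 introns hold one. BRAF spliced reads did not pass with DESeq2 (0.40), library totals (0.23), no filter on low counts (0.41) or without the most-read intron (0.37). For intronic reads, DESeq2 and TMM of the intronic reads each called 1 member higher, AKT1, against 2, and called 1 and 2 lower, against 0. With introns without an annotated exon the 1 member called higher was EGFR, and AKT1 was not tested. DESeq2 and TMM of the intronic reads gave AKT1 adjusted p of 2.89e-05 and 1.35e-05, and log2 changes of -0.86 and -0.85 for BRAF, -1.18 and -1.17 for EGFR and 0.53 and 0.53 for MAP2K1, and -0.95 and -0.97 for BRAF intron 3. Without the most-read intron or with introns without an annotated exon, EGFR intronic reads were 3.94 and 3.91 and its ratio 2.94 and 2.78, in tests that EGFR reached only through the H3B-8800 libraries, and no member's ratio was called lower (0 and 0, against 1). Introns without an annotated exon gave MAP2K1 0.86 for intronic reads and 0.45 for the ratio, which did not pass; the 1 member whose ratio was then called higher was EGFR, and AKT1 was not tested. With DESeq2 the EGFR ratio was -1.10 and did not pass, which left 0 members lower. Among single introns, spliced reads were called higher in 10 with DESeq2 and 16 with library totals, against 26. Over all introns those calls numbered 8039 and 8528, against 14194. Intronic reads were called higher in 3 with DESeq2, 3 with TMM of the intronic reads and 10 without a filter, against 6 (1659, 2563 and 6631 over all introns, against 5793), and lower in 2 with TMM of the intronic reads, 0 with TMM factors of the spliced reads and 0 without a filter, against 1.

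Leaving out each library in turn, which takes the lone library of a group to vary like the other group, members called higher in spliced reads numbered 3 to 5, with 0.20 to 0.64 for BRAF and 0.75 to 1.58 for EGFR. Members with higher intronic reads numbered 0 to 2, the 0 coming from the fits without either H3B-8800 library, in which no gene at all passed, with 1.99 to 2.53 for AKT1, -0.21 to 0.71 for BRAF and 1.15 to 2.11 for MAP2K1. Members with a higher ratio numbered 1 to 2 and with a lower one 0 to 1, with -0.68 to 0.68 for BRAF, -1.55 to -0.71 for EGFR and 0.71 to 1.69 for MAP2K1. Single introns with higher spliced reads numbered 0 to 19 and with lower ones 0 to 12, those with higher intronic reads 0 to 6 and with lower ones 0 to 0, and those with a higher ratio 3 to 6. BRAF intron 3 had -0.30 to 0.59. Over all genes too, spliced reads and the ratio were called less often in each of these fits than with all libraries. The 0 counts of higher and of lower spliced introns and of higher intronic reads came without either H3B-8800 library, in fits in which no intron of the whole table passed. The 0 for a lower ratio came without H3B-8800 replicate 2 and without DMSO replicate 2, and the lower intronic reads of EGFR intron 1 were called in none of these fits. With edgeR without H3B-8800 replicate 1 and replicate 2, 4 of 10 and 3 of 6 member introns had an unadjusted p under 0.05 for intronic reads.

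The replicate numbers did not pair the libraries: same-numbered libraries deviated together with a correlation of 0.05 over 9468 genes for spliced reads. With the replicate block, 5 members were called higher and 1 lower in spliced reads, and 3140 and 3144 of all genes; AKT1 was -0.80. The block changed no call of a member gene.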
